A study of Mus musculus with 25 samples.

Results

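The smooth muscle contractile genes are a set of 33 genes that build and control the contractile apparatus of visceral smooth muscle. They were taken by symbol from a deposited table of 49452 Ensembl gene identifiers, of which 49109 were paired with a symbol, and all 33 were found and passed the filter on low values that left 19266 genes for testing. RNA was measured by stranded, poly(A)-selected sequencing of the distal colon of mice aged 6 weeks on the C57BL/6 background, with 5 mice in each of 5 genotypes. The control genotype was Nemofl/fl, in which the gene for NEMO (Ikbkg), a subunit of the IKK complex that activates NF-kB, carries floxed alleles. The second was NEMOIEC-KO, which lacks NEMO in intestinal epithelial cells, and the remaining 3 add to the epithelial deletion the loss of a cytokine subunit gene. They were labelled NEMOIEC-KO Il12b-/- (p40, shared by IL-12 and IL-23), NEMOIEC-KO Il12a-/- (p35, of IL-12) and, for p19 of IL-23, NEMOIEC-KO Il23a-/-, and are shortened below to the cytokine gene. The Cre driver is not given in the sources used here. The study asked how the loss of each subunit alters the colitis of mice without epithelial NEMO.

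Smooth muscle of the gut wall contracts when calcium and calmodulin activate myosin light chain kinase, which phosphorylates the regulatory light chain of myosin so that it pulls on actin filaments. The filaments are anchored through desmin, synemin, filamin and vinculin to dense bodies and to adhesion plaques at the membrane. Many of the genes are driven by serum response factor and its partner myocardin, which act through a promoter element called the CArG box. Bulk RNA does not separate fewer muscle cells in a piece of colon from less muscle RNA per cell, and all values here carry that limit.

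Promoter windows from RefSeq (build GRCm38.p6), from 250 bases before to 50 bases after a transcript's start, matched 29 of the 33 genes in 35 windows. No window was listed for Actg2, Myh11, Tagln and Myocd. The windows were searched for the CArG box, which is CC, then 6 bases that are each A or T, then GG, and reads the same on both strands. The same element with 1 of the 6 core bases changed to C or G was searched too, and so was the MEF2 box on both strands. A strict CArG box was found in 6 of the 35 windows (17.14%), against 535 of all 32851 windows in the table (1.63%). The 2 windows of Ldb3 overlap and hold the same site, so that the 6 windows stand for 5 of 29 genes. A CArG box with up to 1 core change was found in 10 windows (28.57%) against 3280 (9.98%), for 9 genes, and a MEF2 box in 3 windows (8.57%) against 1047 (3.19%). No CArG match overlapped a MEF2 match in these windows. A match describes letters and is not evidence of binding.

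Windows of 5 genes are printed because the RNA of their genes behaved differently across the genotypes. Acta2 and Myl9 moved with the bulk of the set, Casq2 and Smpx had large differences, and Vcl stayed apart from the rest. Capitals mark CArG boxes, including those with 1 core change, and MEF2 boxes, and all are written 5′ to 3′ on the gene's strand. In Acta2 (chr19:34255324-34255623, minus strand) both marked elements have 1 core change and start 84 and 34 bases before the transcript's start. In Myl9 (chr2:156775214-156775513, plus strand) a strict CArG box starts 161 bases before the start and one with 1 core change 99 bases before it. In Vcl (chr14:20929148-20929447, plus strand) a strict CArG box starts 227 bases before the start. Casq2 (chr3:102086165-102086464, plus strand) has a MEF2 box 69 bases before the start, and Smpx (chrX:157698723-157699022, plus strand) has none of the 3 elements in this window.
Acta2: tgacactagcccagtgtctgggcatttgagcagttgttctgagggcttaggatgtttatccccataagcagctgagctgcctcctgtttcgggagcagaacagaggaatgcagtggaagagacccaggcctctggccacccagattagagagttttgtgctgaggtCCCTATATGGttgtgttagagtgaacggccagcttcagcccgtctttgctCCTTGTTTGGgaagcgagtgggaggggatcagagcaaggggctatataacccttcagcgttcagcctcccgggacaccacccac
Myl9: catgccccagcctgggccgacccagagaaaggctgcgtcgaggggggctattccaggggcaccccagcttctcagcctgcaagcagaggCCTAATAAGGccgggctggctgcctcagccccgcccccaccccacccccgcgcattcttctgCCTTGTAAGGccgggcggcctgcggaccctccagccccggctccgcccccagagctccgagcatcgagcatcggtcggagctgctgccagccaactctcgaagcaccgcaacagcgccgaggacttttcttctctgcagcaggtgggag
Vcl: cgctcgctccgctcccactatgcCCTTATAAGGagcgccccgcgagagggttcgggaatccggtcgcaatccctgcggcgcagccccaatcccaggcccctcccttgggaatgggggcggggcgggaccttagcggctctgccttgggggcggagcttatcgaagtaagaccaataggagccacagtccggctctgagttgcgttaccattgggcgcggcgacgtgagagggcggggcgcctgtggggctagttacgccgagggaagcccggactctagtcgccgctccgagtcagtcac
Casq2: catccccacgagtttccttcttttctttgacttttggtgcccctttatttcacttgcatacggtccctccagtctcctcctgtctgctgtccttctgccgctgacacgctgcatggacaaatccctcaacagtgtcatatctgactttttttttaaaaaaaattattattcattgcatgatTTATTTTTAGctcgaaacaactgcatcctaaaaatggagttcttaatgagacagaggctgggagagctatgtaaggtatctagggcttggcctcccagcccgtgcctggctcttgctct
Smpx: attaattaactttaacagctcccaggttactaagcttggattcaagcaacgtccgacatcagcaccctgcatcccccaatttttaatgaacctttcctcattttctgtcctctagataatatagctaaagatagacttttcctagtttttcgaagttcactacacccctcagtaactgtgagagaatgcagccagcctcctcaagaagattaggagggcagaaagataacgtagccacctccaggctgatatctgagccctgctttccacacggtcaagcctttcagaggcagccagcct

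Values were deposited as FPKM, fragments scaled to transcript length and to the number of mapped fragments, so that levels of different genes can be set side by side. Absolute depth is unknown, and relative depth, estimated from the steps between low values, ran from 0.702 to 1.16 of the median library. Ikbkg was 9.08 ± 1.14 FPKM (SD, n = 5) in Nemofl/fl and between 3.34 and 4.08 on average in the other 4 genotypes. The libraries labelled NEMOIEC-KO Il12b-/- held more Il12b RNA than NEMOIEC-KO (0.994 ± 0.223 against 0.171 ± 0.0799 FPKM), and those labelled NEMOIEC-KO Il12a-/- held more Il12a RNA (1.20 ± 0.586 against 0.421 ± 0.313). In the libraries labelled NEMOIEC-KO Il23a-/-, Il23a was 0.214 ± 0.0427 FPKM, against 0.311 ± 0.308 in NEMOIEC-KO and 0.182 ± 0.102 in Il12a-/-. RNA level alone therefore does not check these 3 labels, and the groups are named below as they were labelled. Xist RNA, which marks female mice, was between 64.4 and 118 FPKM in 9 libraries and at most 0.314 in the other 16. The 9 libraries were NEMOIEC-KO replicate 3, Il12b-/- replicates 1 and 2, Il12a-/- replicates 2 and 5, and Il23a-/- replicates 1, 3, 4 and 5, so that no control library and 4 of 5 Il23a-/- libraries came from females. Nemofl/fl replicate 2 and Il12b-/- replicate 5 held RNA of skeletal muscle: myosin heavy chain Myh1 was 16.8 and 2.64 FPKM there and at most 0.0522 in the other 23 libraries. The code K002000081 is given for the 5 controls and for replicates 3, 4 and 5 of NEMOIEC-KO; the rest have K002000079, apart from Il23a-/- replicate 5 with K002000080.

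The 33 genes made up between 0.499% and 2.94% of all FPKM in a library, and their level moved as a block from mouse to mouse. The muscle level of a library was taken as the mean over the 33 genes of the log2 difference from the control mean. In Nemofl/fl it was -0.95, 0.60, 0.33, 0.12 and -0.10 in replicates 1 to 5. In NEMOIEC-KO it was -0.47, -1.39, -1.75, -0.93 and -0.58, so that replicates 2 and 3 lay below the lowest control and the other 3 between the 2 lowest controls. In the libraries labelled Il12b-/- it was -0.22, -1.26, 0.21, -0.35 and -0.15, and in those labelled Il12a-/- it was -1.33, 0.18, 0.44, -0.20 and -0.02. Each of these 2 genotypes thus had 1 low library among 4 that lay within the control range. In Il23a-/- the level was -1.55, -0.26, -1.47, -1.54 and -1.02, with replicate 2 standing above the other 4. Of the 9 libraries with Xist RNA, 6 lay below -1, namely those of NEMOIEC-KO replicate 3, Il12b-/- replicate 2 and the 4 of Il23a-/-, while the other 3 lay between -0.22 and 0.18. Of the 16 without Xist RNA, those below -1 were NEMOIEC-KO replicate 2 and Il12a-/- replicate 1.

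**Figure D1:**
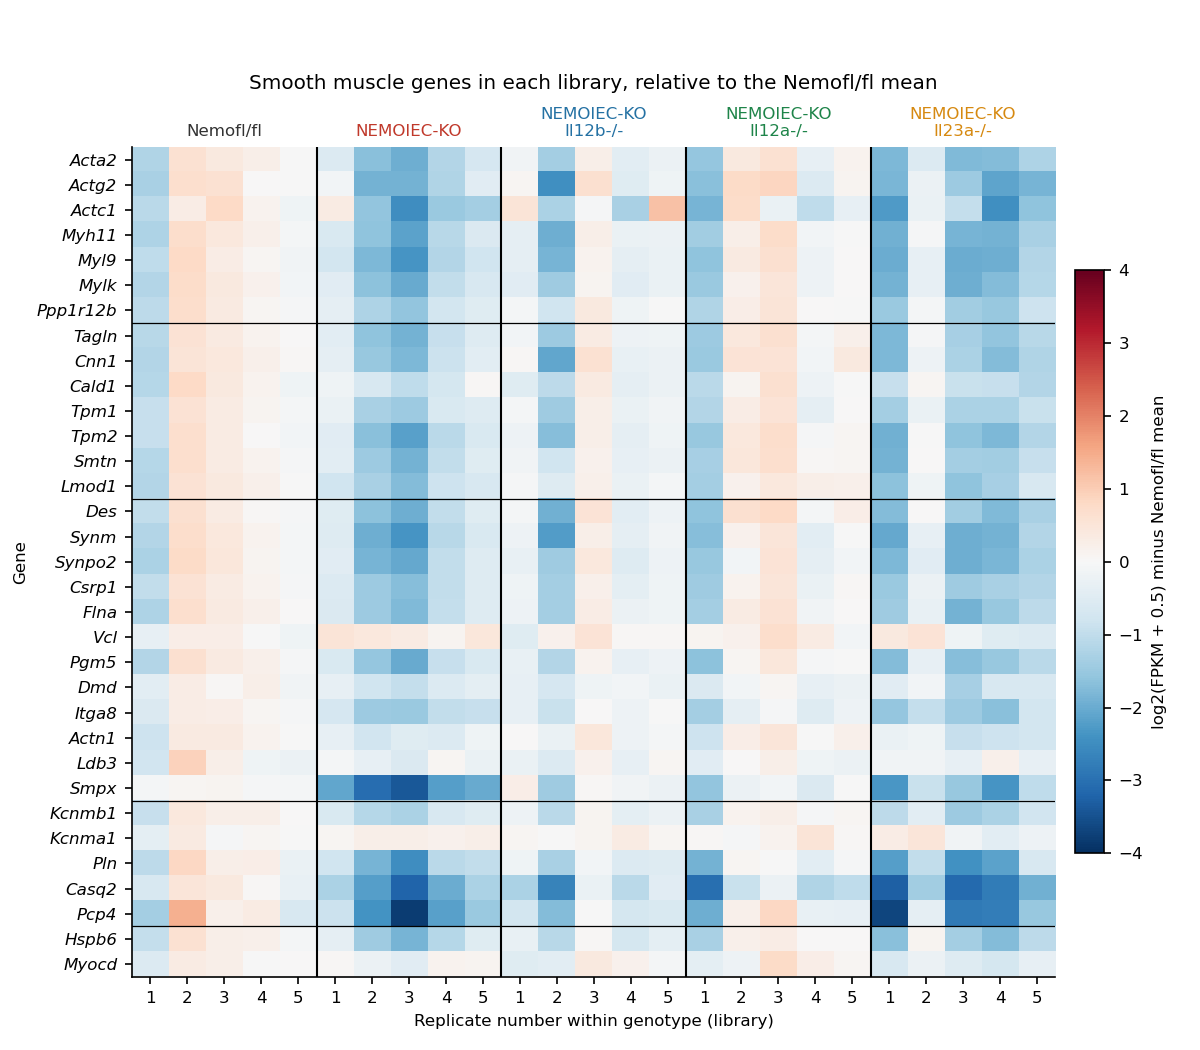
Heat map of the log2 difference from the control mean for each of the 33 genes (rows, by role) in each of the 25 libraries (columns, by genotype). Nearly all rows darken and lighten together within a column, as in NEMOIEC-KO replicate 3, where the muscle level was -1.75.

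Spread between mice of 1 genotype was wide. The pooled within-genotype SD of the log2 level had a median of 0.65 over the 33 genes, against 0.231 over all tested genes, and all 33 lay above that median. It ran from 0.236 for Kcnma1, the pore-forming subunit of the BK potassium channel, to 1.048 for Pcp4, a small modulator of calmodulin. After genotype means were removed, the 528 pairs of genes had a median correlation of 0.891, with 340 pairs (64.4%) above 0.8, and 1 component held 89.1% of their variance. The points share the 25 libraries, so this is a description. Against the mean of the other 32 genes, 28 genes had a correlation above 0.8, while 3.4% of the 19233 other tested genes did against the muscle level. The 5 genes that followed the rest least were Kcnma1 (0.379), Vcl (0.393), Ldb3 (0.665), Actc1 (0.748) and Myocd (0.776).

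The genes also differed in how far they moved with the rest. Pcp4 changed by 1.70 log2 units for each unit of the mean of the other genes, the visceral actin Actg2 by 1.52, and vinculin (Vcl) by 0.22. Smpx, a small muscle protein encoded on the X chromosome, had an SD of 0.089 in Nemofl/fl and between 0.63 and 0.70 in the other 4 genotypes. The 5 control mice thus had like levels of Smpx while their other muscle genes varied.

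**Figure D2:**
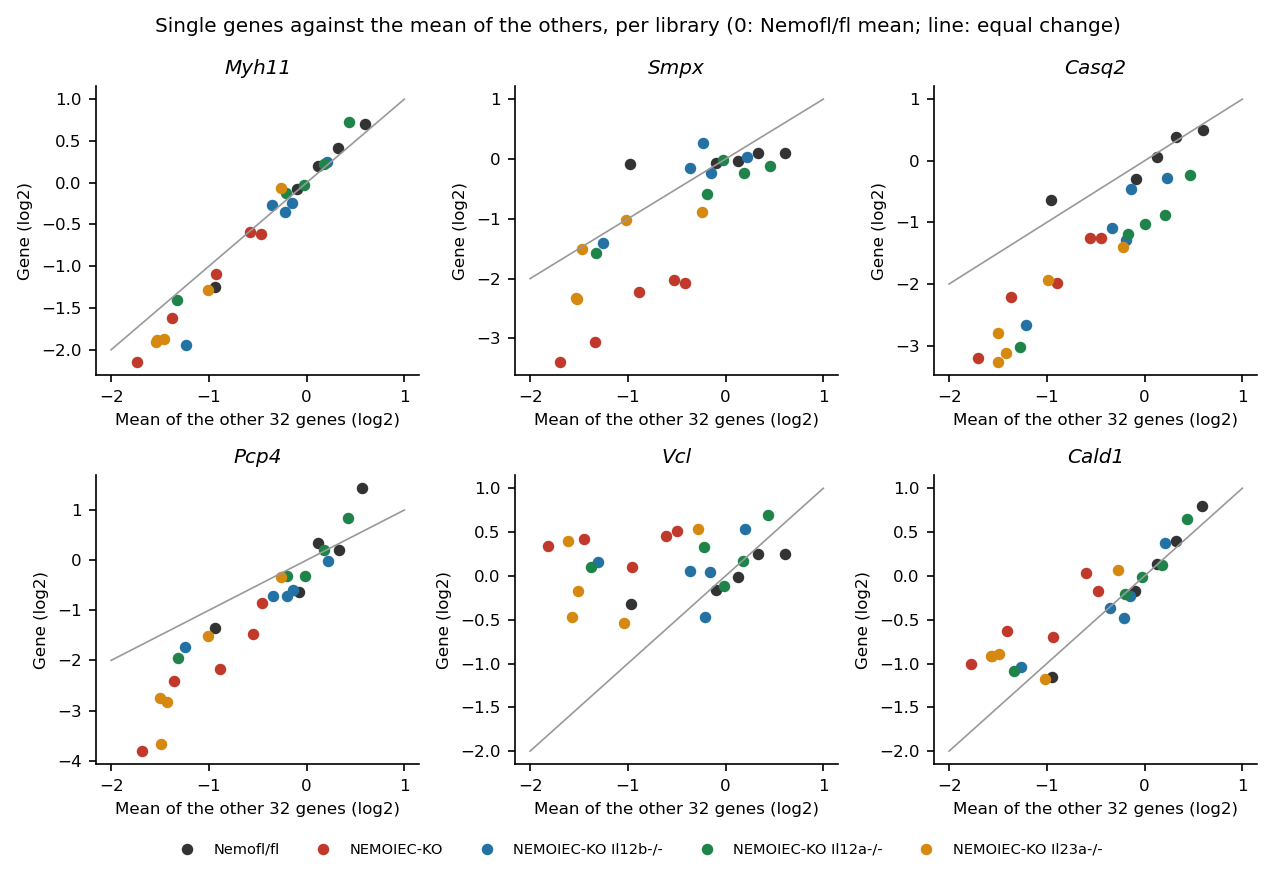
Log2 level of Myh11, Smpx, Casq2, Pcp4, Vcl and Cald1 in each library against the mean log2 level of the other 32 genes, with points marked by genotype. Smpx is flat across the 5 control libraries, Pcp4 is the steepest and Vcl the flattest over all libraries.

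In NEMOIEC-KO against Nemofl/fl, 21 of the 33 genes fell and none rose (limma on log2 of FPKM plus 0.5, Benjamini-Hochberg adjusted over all tested genes, adjusted p below 0.05). Over all 19266 genes the same test called 32.2%, with 20.3% lower and 11.9% higher. The median change of the 33 was -1.08 on the log2 scale, against -0.08 over all tested genes, and 31 of 33 had a lower mean. The largest falls were those of Smpx, Pcp4 and Casq2, and the 2 genes with a higher mean, Vcl and Kcnma1, did not pass the test. Only Smpx, Casq2 and Itga8 had no overlap between the 5 mice of each genotype, and 13.5% of all tested genes lay without overlap in that direction and 8.73% in the other.

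Among the actin and myosin genes, 4 of 7 fell in NEMOIEC-KO. Acta2, the smooth muscle actin shared with vessels and myofibroblasts, was 699.9, 2450, 2135, 1886 and 1593 FPKM in the controls and 1111, 510.3, 418.6, 716.7 and 1010 in NEMOIEC-KO. The groups overlapped because control replicate 1 was below 3 of the NEMOIEC-KO mice, and the change was -1.20 (SE 0.40, adjusted p = 0.0265). Myh11, the smooth muscle myosin heavy chain, was 188.5, 728.8, 595.2, 512.1 and 424.4 FPKM in the controls and 292.3, 145.3, 100.5, 208.7 and 297 in NEMOIEC-KO. Control replicate 1 again lay among the mutants, and the change was -1.21 (SE 0.46, adjusted p = 0.0463). Myl9, the regulatory light chain, fell from 1538 ± 646 to 597.6 ± 253 FPKM (SD, n = 5; -1.37, adjusted p = 0.0233). Its kinase Mylk fell from 116.3 ± 48.9 to 51.6 ± 21.7 FPKM (-1.15, adjusted p = 0.0344).

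The visceral actin Actg2 was the most abundant of the 33 genes in the controls by FPKM. It was 737, 2889, 2776, 1846 and 1810 FPKM there and 1685, 490.4, 485.1, 791.9 and 1335 in NEMOIEC-KO. Its mean was lower, but 3 NEMOIEC-KO mice reached the range of the controls and it did not pass (-1.11, SE 0.55, adjusted p = 0.128). The cardiac actin Actc1, at 3.85 ± 1.84 against 1.52 ± 1.71 FPKM, and the myosin phosphatase subunit Ppp1r12b did not pass either. The 3 actins are near-identical as proteins and have similar coding sequences, so some reads may have been divided between them, and the split is uncertain.

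Among the proteins of the thin filament, 4 of 7 genes fell. Tagln (transgelin), an actin-binding marker of differentiated smooth muscle, was 135.3, 435.1, 373.9, 319.8 and 291.4 FPKM in the controls and 215, 94.1, 78.12, 151.5 and 201.7 in NEMOIEC-KO. Control replicate 1 lay below 3 of the mutants, and the gene passed narrowly (-1.08, SE 0.41, adjusted p = 0.0497). Tropomyosin Tpm2, smoothelin (Smtn) and the actin nucleator Lmod1 also fell, by between 1.04 and 1.20 log2 units. Cnn1 (calponin), which restrains the myosin ATPase, was 326.7, 1073, 998.3, 853.7 and 763.4 FPKM in the controls and 574.9, 261.3, 216, 410 and 558.1 in NEMOIEC-KO. Only control replicate 1 lay within the mutant range, and the change was not called (-0.99, SE 0.46, adjusted p = 0.104). Caldesmon (Cald1), at 134.1 ± 58.7 and 89.64 ± 26.4 FPKM, and Tpm1 were not called, and reads of Tpm1 and Tpm2 may also have been divided between these related genes.

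Of the 12 genes of intermediate filaments and attachment sites, 8 fell. Smpx was 16.85, 19.14, 19.2, 17.47 and 17.02 FPKM in the controls and 3.856, 1.712, 1.25, 3.456 and 4.034 in NEMOIEC-KO. Every control was above every mutant by a wide margin, and the change was -2.55 (SE 0.35, adjusted p = 2.74e-05), a 5.87-fold fall on this scale. Among the libraries without Xist RNA it was -2.34 (adjusted p = 9.44e-05). Itga8, the alpha-8 integrin chain, was 1.41, 2.994, 2.951, 2.519 and 2.294 FPKM in the controls and 1.305, 0.5419, 0.5208, 0.9646 and 1.022 in NEMOIEC-KO. The groups were apart, though narrowly at control replicate 1 and mutant replicate 1 (-1.10, SE 0.25, adjusted p = 0.0024). Synemin (Synm), synaptopodin-2 (Synpo2), Csrp1, filamin A (Flna), Pgm5 and dystrophin (Dmd) also fell, by between 0.61 and 1.31 log2 units.

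Desmin (Des), the main intermediate filament protein of muscle, was 367.9, 1136, 914.1, 746.8 and 700.5 FPKM in the controls and 517.2, 231.8, 185.6, 369.9 and 522.3 in NEMOIEC-KO. Control replicate 1 lay within the mutant range, and the gene was not called (-1.11, SE 0.47, adjusted p = 0.0731). Vcl, which links actin to adhesion plaques in many cell types, was 6.949, 10.62, 10.61, 8.734 and 7.819 FPKM in the controls and 12.8, 12.01, 11.29, 9.532 and 12.29 in NEMOIEC-KO. Its mean lay above the controls, in the opposite direction to the rest, but the change was not called (0.37, 95% interval -0.05 to 0.78, adjusted p = 0.166). Alpha-actinin-1 (Actn1) and the Z-disc protein Ldb3 were not called. Ldb3 was highest, at 10.15 FPKM, in control replicate 2, one of the 2 libraries with skeletal muscle RNA.

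**Figure D3:**
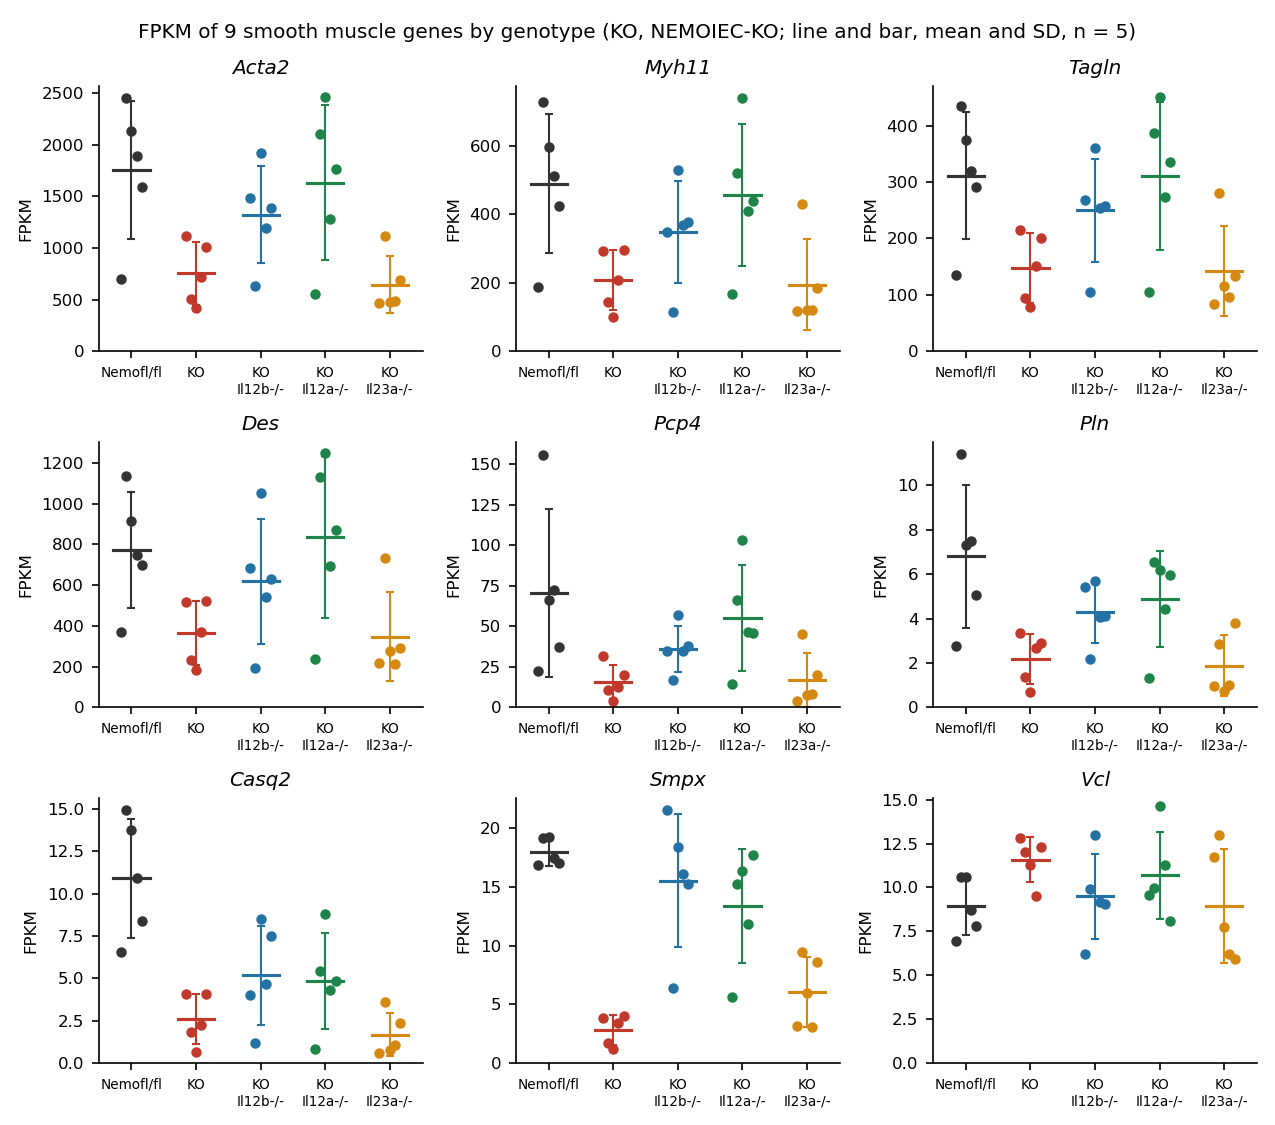
FPKM of Acta2, Myh11, Tagln, Des, Pcp4, Pln, Casq2, Smpx and Vcl in each library, by genotype, with the mean and SD over 5 mice. Smpx is near 17.94 in all controls and at most 4.034 in NEMOIEC-KO, while Acta2 and Myh11 overlap between these genotypes.

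Among the genes of calcium handling and the membrane, 4 of 5 fell. Casq2, the calcium store protein calsequestrin-2, was 6.561, 14.9, 13.73, 10.89 and 8.41 FPKM in the controls and 4.09, 1.852, 0.6918, 2.263 and 4.066 in NEMOIEC-KO. No mutant reached the lowest control, and the change was -1.98 (SE 0.50, adjusted p = 0.00495). Pcp4 was 22.25, 155.8, 66.12, 72.35 and 36.95 FPKM in the controls and 31.53, 10.44, 3.623, 12.26 and 20.21 in NEMOIEC-KO. Control replicate 2 held the highest value and mutant replicate 1 overlapped the lowest control (-2.15, SE 0.62, adjusted p = 0.0124). Phospholamban (Pln), which restrains the calcium pump of the store, was 2.75, 11.41, 7.314, 7.475 and 5.048 FPKM in the controls and 3.362, 1.354, 0.6826, 2.653 and 2.913 in NEMOIEC-KO. It fell by 1.44 log2 units (SE 0.43, adjusted p = 0.0142), with only control replicate 1 inside the mutant range. Kcnmb1, the smooth muscle beta subunit of the BK channel, fell, and its pore subunit Kcnma1, at 1.89 ± 0.43 and 2.20 ± 0.131 FPKM, was not called.

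Myocd, the myocardin coactivator, was 0.2972, 0.9727, 0.8812, 0.6624 and 0.6959 FPKM in the controls and 0.7099, 0.4948, 0.3536, 0.8035 and 0.781 in NEMOIEC-KO. The NEMOIEC-KO values lay within the control range (-0.08, SE 0.21, adjusted p = 0.796), and the sign of this small difference turned in several alternatives. The small heat shock protein Hspb6, which is linked to muscle relaxation, fell by 1.06 log2 units.

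**Figure D4:**
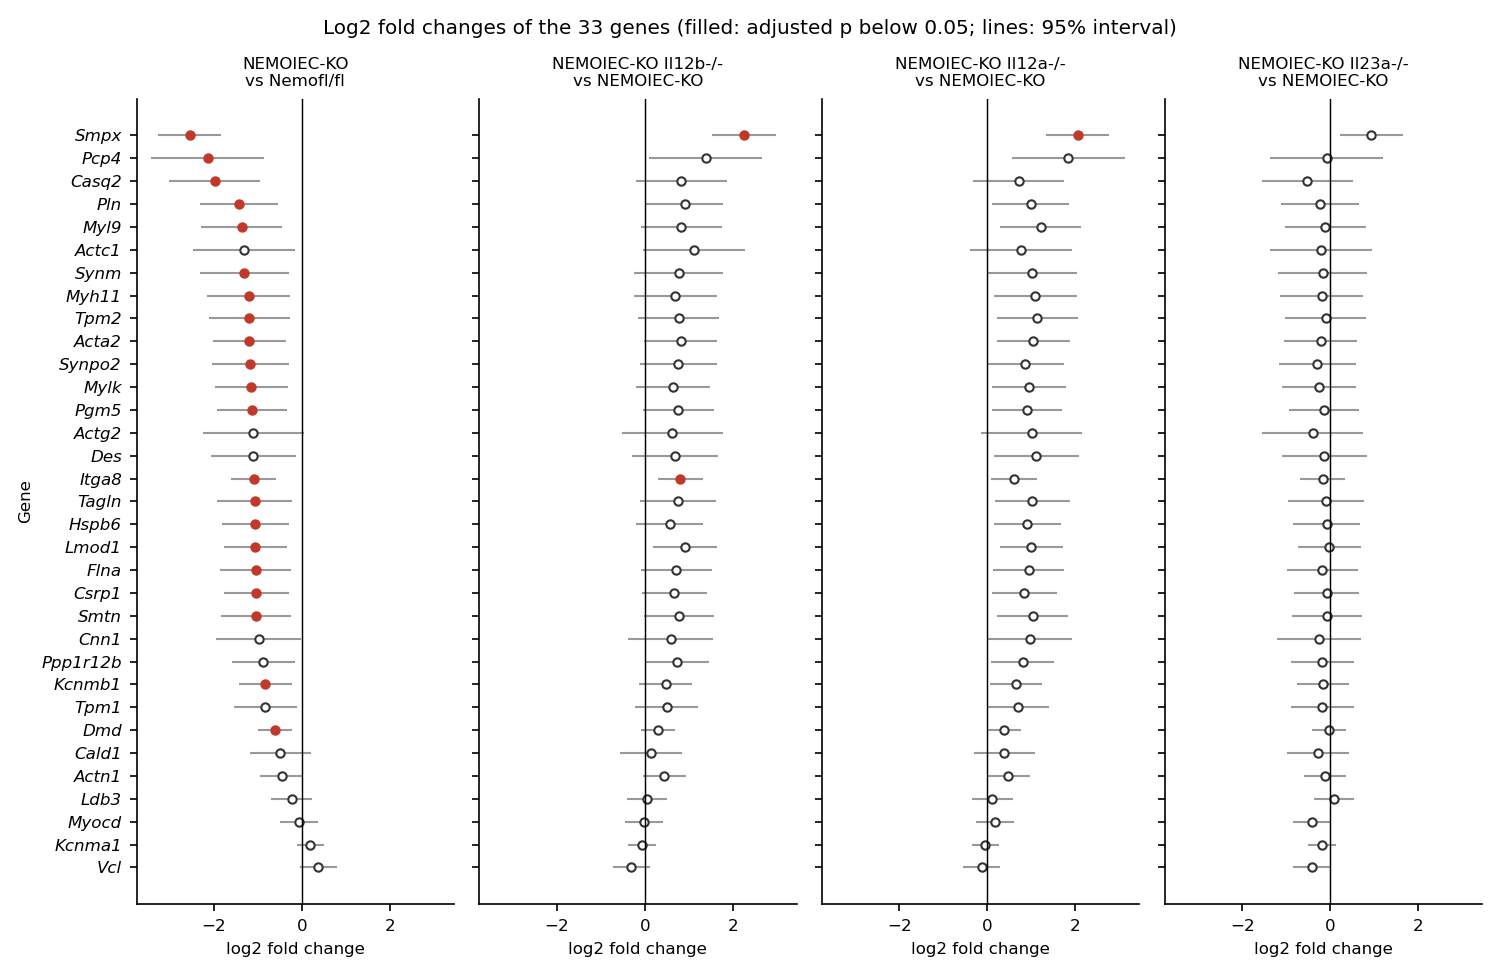
Log2 fold change with its 95% interval for each of the 33 genes in the comparison of NEMOIEC-KO with the controls (first panel) and of the 3 double mutants with NEMOIEC-KO, with filled points for an adjusted p below 0.05. The first panel has 21 filled points, all below 0, and the other 3 have 2, 1 and none.

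The number of called genes in this comparison rested on few mice. Leaving out each library in turn left between 4 and 27 of the 33 genes called: 4 without NEMOIEC-KO replicate 3, 6 without replicate 2 of NEMOIEC-KO or replicates 2 or 3 of Nemofl/fl, 7 without control replicate 4, 12 without control replicate 5, and 27 without control replicate 1. Without NEMOIEC-KO replicate 4 it was 14. Within the code K002000081, which holds all 5 controls and 3 NEMOIEC-KO libraries, 8 genes were called, and 7 with the code as a covariate. With both libraries holding skeletal muscle RNA left out, 4 were called. With Xist RNA as a covariate 14 were called, and 6 among the libraries without it (5 controls against 4 NEMOIEC-KO), namely Dmd, Itga8, Smpx, Pln, Casq2 and Pcp4. Itga8, Smpx, Casq2 and Pcp4 were called with each library left out in turn and in all 14 other settings tried without the level of the other genes. Acta2 and Myh11 were called in 5 and 3 of the 10 fits with 1 library left out.

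Markers of other cells moved with this comparison too. Of 12 leukocyte markers 8 rose, and their summed level was 26.34 to 40.07 FPKM in the controls and 38.57 to 592.6 in NEMOIEC-KO, with the highest values in replicates 2 and 3, the 2 libraries with the lowest muscle level. Of 10 epithelial markers 6 rose (9375 to 10030 FPKM in the controls, 11680 to 12710 in NEMOIEC-KO). Of 12 fibroblast and matrix genes 5 fell (891.7 to 1446 against 675.8 to 804.1 FPKM). Over all tested genes 11.9% were called higher and 20.3% lower. No leukocyte marker was at 0 in any library. The summed level of the 9 tested skeletal muscle genes was 21.9 to 450.1 FPKM in the controls and 18.19 to 39.8 in NEMOIEC-KO. Myh4, which did not pass the filter and is not in this sum, was at 0 in 18 of 25 libraries. The part of these cells in the difference was not tested.

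In the libraries labelled Il12b-/- against NEMOIEC-KO, Smpx and Itga8 rose and no gene of the set fell. Over all tested genes 19.9% were called, 14% higher and 5.94% lower. The median change of the 33 was 0.72 against 0.11 over all tested genes, and 30 had a higher mean. Smpx was 21.54, 6.419, 18.35, 16.08 and 15.23 FPKM, with every library above every NEMOIEC-KO library, also the low replicate 2 (2.26, SE 0.35, adjusted p = 0.000165). Itga8 was 1.774, 1.042, 2.398, 1.982 and 2.329 FPKM and overlapped with NEMOIEC-KO through replicate 2 (0.81, SE 0.25, adjusted p = 0.025). Lmod1 was also without overlap, at 26.66 to 44.79 against 11.2 to 24.64 FPKM, but did not pass (adjusted p = 0.0647); 11.7% of all tested genes lay without overlap in that direction and 4.1% in the other. Acta2 was 1481, 631, 1920, 1196 and 1384 FPKM and Myh11 349, 115.9, 530, 369.7 and 378.4. For both, replicate 2 lay among the NEMOIEC-KO mice and the rest above all of them, and neither passed (0.82 and 0.70, adjusted p = 0.15 and 0.285). Smpx was called with each library left out in turn and Itga8 in 5 of 10 such fits, being lost without NEMOIEC-KO replicates 2 or 3 or Il12b-/- replicates 3, 4 or 5.

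In the libraries labelled Il12a-/- against NEMOIEC-KO, Smpx was the 1 gene called, against 9.61% of all tested genes called, 5.61% higher and 4% lower. It was 5.668, 15.21, 16.39, 11.82 and 17.72 FPKM, and the lowest of these, replicate 1, was still above all NEMOIEC-KO mice (2.05, SE 0.35, adjusted p = 0.00159). In this direction 3.18% of all tested genes lay without overlap, and 1.97% in the other. Among the libraries without Xist RNA the rise of Smpx was 1.58 (adjusted p = 0.0323), and 2.23 (adjusted p = 0.000866) in Il12b-/-. The median change of the 33 genes was 0.91 and 31 had a higher mean. Acta2 was 551.2, 2107, 2462, 1282 and 1762 FPKM and Myh11 168.7, 521.7, 740.5, 410.8 and 438.2. Replicate 1 lay within the NEMOIEC-KO range and the other 4 above it (1.05 and 1.09, adjusted p = 0.0926 and 0.119). That 1 library set the count: without Il12a-/- replicate 1, 24 genes were called. The 9.61% above belongs to the fit of all libraries. The share of all tested genes called without this library is not given here, so the 24 genes cannot be set against it. Without NEMOIEC-KO replicate 1 the count was 2, with Xist RNA as a covariate 4, and among the libraries of code K002000079 alone, which leaves 2 NEMOIEC-KO mice, none was called.

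In Il23a-/- against NEMOIEC-KO no gene of the set was called in either direction, and 2 of 33 had an unadjusted p below 0.05. Only 0.083% of all tested genes were called, 0.0467% higher and 0.0363% lower. The median change of the 33 was -0.17 and 31 had a lower mean. Smpx was 3.177, 9.486, 5.991, 3.122 and 8.615 FPKM, so that 3 of 5 mice were above the highest NEMOIEC-KO mouse, but the difference did not pass (0.94, 95% interval 0.22 to 1.67, adjusted p = 0.299). Casq2 was 0.6367, 3.632, 0.7648, 1.082 and 2.358 FPKM and stayed within or below the NEMOIEC-KO range (-0.52, adjusted p = 0.812). Myh11 was 118.6, 428.7, 121.8, 120.3 and 183.4 FPKM and Itga8 0.4903, 0.9796, 0.5466, 0.3976 and 1.243. For Myh11, replicate 2, the 1 library of this genotype without Xist RNA, was the highest.

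Set against Nemofl/fl, the double mutants differed in the number of genes called, which is not itself a test between them. In Il23a-/-, 26 of 33 genes were lower, against 17% of all tested genes (12.6% higher, 29.5% in all), with a median change of -1.23. All 7 actin and myosin genes were lower, among them Acta2 (-1.41, adjusted p = 0.0138), Actg2 (-1.50, adjusted p = 0.0454) and Myh11 (-1.40, adjusted p = 0.0269), and so were 6 of 7 thin filament genes. Casq2 had the largest difference (-2.50, adjusted p = 0.00167), followed by Pcp4 (-2.22, adjusted p = 0.0127), and Casq2, Itga8 and Smpx did not overlap with the controls (7.45% of all tested genes in that direction, 8.47% in the other). This count also moved: without Il23a-/- replicates 3, 4 or 1 it was 9, 11 or 13, and without control replicates 2, 3 or 4 it was 10, 12 or 14. It was 8 without both libraries with skeletal muscle RNA, 2 with the library code as a covariate and 2 with Xist RNA as a covariate, namely Itga8 and Casq2. Among the libraries without Xist RNA no gene was called, with 1 Il23a-/- library left that is assumed to vary like the other groups. Sex and genotype cannot be fully told apart in this comparison. All controls have the code K002000081 and no double mutant library does. Code and genotype therefore cannot be fully told apart when any double mutant is set against the controls.

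Against Nemofl/fl, neither the libraries labelled Il12b-/- nor those labelled Il12a-/- had a called gene of the set by limma, with 1 gene each at an unadjusted p below 0.05. The background was 0.369% of all tested genes (0.249% higher, 0.119% lower) and 1.34% (0.773% higher, 0.571% lower). These 2 genotypes share the control and NEMOIEC-KO libraries with the comparisons above, so their values are not independent of them. The largest difference in both was that of Casq2, at 5.18 ± 2.9 and 4.85 ± 2.85 FPKM against 10.9 ± 3.5 in the controls (-1.15 and -1.27, adjusted p = 0.3 and 0.163). Casq2 was 4.012, 1.224, 8.512, 4.656 and 7.493 FPKM in the first and 0.8394, 5.446, 8.807, 4.292 and 4.873 in the second. Only 2 libraries labelled Il12b-/- and 1 labelled Il12a-/- thus came within the control range, which started at 6.561.

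Between the double mutants, Il23a-/- had lower Itga8 (-0.98, adjusted p = 0.0273) and Smpx (-1.31, adjusted p = 0.0329) than Il12b-/-, where 5.11% of all tested genes were called, 3.18% lower and 1.93% higher. Neither call held when Xist RNA was a covariate. Both were lost without any 1 of replicates 1, 3, 4 and 5 of Il12b-/- or 1, 3 and 4 of Il23a-/-, while 10 genes were called without Il12b-/- replicate 2 and 4 without Il23a-/- replicate 2. Against Il12a-/- all 33 genes had a lower mean in Il23a-/- and none was called, while 28 had an unadjusted p below 0.05 and 1.16% of all tested genes were called (0.763% higher, 0.4% lower). Without Il12a-/- replicate 1, 27 were called, and 4 without Il23a-/- replicate 2. The shares of all tested genes in this paragraph belong to the fit of all libraries, not to fits with a library left out. Between the libraries labelled Il12a-/- and Il12b-/- none of the 33 genes was called by limma and none had an unadjusted p below 0.05 (0.41% of all tested genes called, 0.176% higher and 0.234% lower).

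Smpx stood out from the block when the level of the other genes was held equal, in a fit that was added after the data were seen. With the mean log2 level of the other 32 genes as a covariate, Smpx was still lower in NEMOIEC-KO than in Nemofl/fl (-1.76, SE 0.24, adjusted p = 6.7e-05) and Itga8 too (-0.45, adjusted p = 0.03), while Acta2 and the other 30 genes were not called. The same covariate left 8.93% of all tested genes called. Each double mutant exceeded NEMOIEC-KO in Smpx by this measure: Il12b-/- by 1.75 (adjusted p = 2.5e-05), Il12a-/- by 1.40 (adjusted p = 0.0024) and Il23a-/- by 1.09 (adjusted p = 0.02). The background in these 3 comparisons was 11.4%, 0.872% and 0.612%. The Il23a-/- call was lost in 5 of 29 alternatives of this fit, and the others of Smpx in none. The call of Itga8 held in 23 of 29. These alternatives were other pseudocounts, scalings and leaving out each library. None of them took account of Xist RNA or library code, or left out both libraries with skeletal muscle RNA. Xist RNA was present in 4 Il23a-/- libraries and 1 of NEMOIEC-KO, and its part in the Smpx difference at equal level was not tested. This fit gives all genotypes 1 slope on the level of the other genes, and that level itself differed between genotypes. In the controls Smpx hardly varied (SD 0.089) while the muscle level did (SD 0.59). The size of the Smpx differences in this fit therefore depends on the level at which the genotypes are compared.

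Casq2 showed another pattern at equal level of the other genes. It was lower than in Nemofl/fl in Il12a-/- (-1.06, adjusted p = 0.0027; background 2.09%) and in Il23a-/- (-0.97, adjusted p = 0.02; background 1.85%). In NEMOIEC-KO (-0.64, adjusted p = 0.058) and Il12b-/- (-0.71, adjusted p = 0.094) it had the same sign and did not pass. Smpx in Il12b-/- differed from the controls by -0.01 (SE 0.21, adjusted p = 0.99). Pcp4, which had the second largest fall in NEMOIEC-KO, was not called at equal level of the others (-0.47, adjusted p = 0.31). In Il12b-/- against NEMOIEC-KO, Itga8 (0.39, adjusted p = 0.036) was higher and Cald1 (-0.46, adjusted p = 0.048) lower, called in 22 and 9 of 29 alternatives. Itga8 was also lower in Il23a-/- than in Nemofl/fl (-0.53, adjusted p = 0.044), called in 11 of 29.

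Ratios to Myh11 within a library are given as a description, for genes picked after their values were seen. Acta2 was 362% ± 15.7 of Myh11 (SD, n = 5) in the controls and 366% ± 32.2 in NEMOIEC-KO, and Des was 163% ± 19.2 and 175% ± 9.26, with a range of 146% to 195% in the controls that held the mutants' 159% to 185%. Smpx was 4.44% ± 2.56 of Myh11 in the controls and 1.35% ± 0.184 in NEMOIEC-KO. In the double mutants it was 4.71% ± 1.12 (Il12b-/-), 3.08% ± 0.676 (Il12a-/-) and 3.42% ± 1.28 (Il23a-/-). Its highest ratio in NEMOIEC-KO, 1.66%, was below the lowest in the controls, 2.63%. Itga8 was 0.537% ± 0.127 of Myh11 in the controls, 0.429% ± 0.0702 in NEMOIEC-KO and 0.602% ± 0.176 in Il12b-/- mice, with overlap between the groups. On the log2 scale with the pseudocount its ratio was 0.11 higher in NEMOIEC-KO than in the controls, against the sign of the fit at equal level. Casq2 was 2.39% ± 0.623 of Myh11 in the controls and between 0.839% and 1.41% on average in the other 4 genotypes. Cald1, which is expressed beyond muscle, was 27.4% ± 1.64 of Myh11 in the controls and 46% ± 10.7 in NEMOIEC-KO. In the double mutants it was 31.8% ± 10.9 (Il12b-/-), 27.7% ± 3.56 (Il12a-/-) and 44.2% ± 13.3 (Il23a-/-), and the Il12b-/- range of 25.1% to 51.1% overlapped that of NEMOIEC-KO. Vcl was 2.09% ± 0.902 of Myh11 in the controls and 6.52% ± 3.14 in NEMOIEC-KO.

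Other genes of the muscle pathway were taken from 4 lists. Of 16 genes of contraction signalling, 7 fell and 1 rose in NEMOIEC-KO against Nemofl/fl, and of 11 calcium channel and store genes 7 fell. Of 25 genes of muscle adhesion and cytoskeleton 11 fell, and of 13 tested transcription regulators of muscle 3 fell and 1 rose. Over all tested genes 20.3% were called lower and 11.9% higher, and the regulators were near these shares. The 2 that rose, named here after their values were seen, were Rock2, a kinase that inhibits myosin phosphatase (0.30, adjusted p = 0.0235), and the serum response factor partner Elk4 (0.27, adjusted p = 0.0165). The tachykinin receptor Tacr2, through which substance P and neurokinin A contract the gut, fell from 5.94 to 1.93 FPKM (-1.33, adjusted p = 0.00877). Ppp1r14a (CPI-17), which inhibits myosin phosphatase, fell from 84.5 to 35.8 FPKM (-1.25, adjusted p = 0.00735). The focal adhesion adaptor Lims2 (-1.32, adjusted p = 0.0124), Pdlim3 (-1.19, adjusted p = 0.0323), the calcium pump Atp2b4 (-1.08, adjusted p = 0.0393) and the factors Foxf2 (-0.59, adjusted p = 0.039) and Tead3 (-0.56, adjusted p = 0.00221) fell as well. The calls of Ppp1r14a, Lims2 and Tead3 held in all 24 alternatives, and that of Tacr2 in 23. Pdlim3 held in 14, Foxf2 in 12 and Atp2b4 in 10. Sarcolipin (Sln) was lower too, but its control mean of 1.87 FPKM rested on replicate 2, at 6.489, a library with skeletal muscle RNA. The call of Sln still held in 22 of 23 alternatives, with log2 changes from -3.155 to -1.129.

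Against NEMOIEC-KO, 2 of 16 contraction signalling genes rose and 1 fell in both Il12b-/- and Il12a-/-, and no calcium channel or store gene was called. Of the 13 regulators 3 and 2 rose, and of the 25 adhesion genes 1 and none. The background was 14% higher and 5.94% lower in Il12b-/-, and 5.61% and 4% in Il12a-/-. The gene that fell was Rock2 in each (-0.31, adjusted p = 0.0295, and -0.42, adjusted p = 0.0138). Ppp1r14a rose in the libraries labelled Il12b-/- (1.14, to 75.8 FPKM, adjusted p = 0.0199) and in those labelled Il12a-/- (1.17, to 84.1 FPKM, adjusted p = 0.0309). The guanylate cyclase subunit Gucy1a1 (0.81, adjusted p = 0.0426) and the factors Nkx2-3 (0.59, adjusted p = 0.015) and Mef2c (0.59, adjusted p = 0.0294) rose in Il12b-/-. Tacr2 (1.36, to 5.99 FPKM, adjusted p = 0.0232), Tead3 (0.53, adjusted p = 0.0127) and serum response factor Srf (0.48, adjusted p = 0.039) rose in Il12a-/-. The adhesion gene Parva rose in Il12b-/- (0.36, adjusted p = 0.0335). Of 24 alternatives, the Il12b-/- calls held in 22 for Nkx2-3, 20 for Ppp1r14a, 14 for Parva, 12 for Mef2c and 10 for Gucy1a1. Those of Il12a-/- held in 20 for Tead3, 15 for Tacr2, 13 for Ppp1r14a and 10 for Srf. In Il23a-/- against NEMOIEC-KO no gene of the 4 lists was called.

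The level of neighbouring cell types was set beside the muscle level over the 25 libraries as a description. Genes of muscle adhesion followed it most closely (r = 0.98, and 0.97 after genotype means were removed), and contraction signalling (0.95) and calcium channels (0.96) were near it. Markers of enteric neurons and glia also followed (0.86, and 0.82 within genotypes). So did the list for interstitial cells of Cajal, the pacemaker cells of the muscle layer (0.85 and 0.74). Fibroblast and matrix genes (0.77 and 0.61) and pericyte and vascular muscle genes (0.77 and 0.66) followed less. Endothelial markers followed little (0.25), and not within genotypes (-0.05). Leukocyte markers ran the other way (-0.81, and -0.72 within genotypes), as did epithelial markers (-0.70 and -0.47). In NEMOIEC-KO against Nemofl/fl, 4 of 7 tested genes of the Cajal cell list fell, among them Kit (-0.79, from 13.9 to 7.95 FPKM, adjusted p = 0.00781). Another was Cd34 (-0.97, adjusted p = 0.00137), which is expressed by other cells of the wall and does not mark Cajal cells by itself. Of 14 neuronal and glial genes 2 fell, among them the glial marker S100b (-0.87, adjusted p = 0.0209). The calls of Kit and Cd34 held in all 24 alternatives and that of S100b in 17. The neuronal and glial count was below the 20.3% of all tested genes called lower. The share of each cell type in the tissue piece was not measured.

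Genes of other cells of the wall were called in both directions in NEMOIEC-KO against Nemofl/fl. The matrix genes Dpt (-1.11, adjusted p = 0.00135) and Postn (-0.92, adjusted p = 0.00427) fell, as did the pericyte marker Rgs5 (-0.81, adjusted p = 0.0096), Cox4i2 (-0.58, adjusted p = 0.0445) and the endothelial genes Emcn (-0.66, adjusted p = 0.0188) and Tek (-0.49, adjusted p = 0.0213). These were 2 of 10 pericyte and 2 of 10 endothelial genes, no more than the 20.3% of all tested genes called lower, and none of 5 mesothelial or 7 adipocyte genes was called. The neutrophil genes S100a9 (4.64, from 1.38 to 99.7 FPKM, adjusted p = 0.0118) and S100a8 (4.32, adjusted p = 0.019) rose, and so did the epithelial genes Krt20 (1.14, adjusted p = 2.86e-05) and Cldn7 (0.45, adjusted p = 0.000137). The calls of Dpt, Postn, Rgs5, S100a9, Krt20 and Cldn7 held in all 24 alternatives. S100a8 held in 23, Emcn in 21, Tek in 18 and Cox4i2 in 9.

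In Il12b-/- against NEMOIEC-KO, Cd34 (0.94, adjusted p = 0.00285), Thbs4 (0.66, adjusted p = 0.000949), Dpt (0.87, adjusted p = 0.0119), Dcn (0.81, adjusted p = 0.0232), Rgs5 (0.74, adjusted p = 0.0233), Emcn (0.68, adjusted p = 0.0228), Tek (0.50, adjusted p = 0.0294) and the mesothelial Wt1 (0.42, adjusted p = 0.0496) rose. These came from lists with 3 of 7 genes of the Cajal cell list, 5 of 12 fibroblast, 1 of 10 pericyte, 2 of 10 endothelial and 1 of 5 mesothelial genes higher. None of these lists had a gene called lower. The calls of Cd34 and Thbs4 held in 23 of 24 alternatives, Dpt in 21, Dcn in 20 and Rgs5 in 19. Emcn held in 16, Tek in 14 and Wt1 in 6 of 23. Over all tested genes 14% were called higher and 5.94% lower, and the pericyte, endothelial and mesothelial counts were near the higher share. Of 10 epithelial genes 5 fell, among them Krt20 (-0.96, adjusted p = 0.000259), and 1 rose, the factor Cdx2 (1.25, adjusted p = 0.0402). Of 12 leukocyte genes 4 fell, among them S100a9 (-4.43, adjusted p = 0.0228) and S100a8 (-4.21, adjusted p = 0.0315). The call of Krt20 held in all 24 alternatives, S100a9 in 16, S100a8 in 14 and Cdx2 in 9. In Il12a-/-, Dpt (0.79, adjusted p = 0.0351) and the collagen gene Col6a1 (0.60, adjusted p = 0.0386) rose, and S100a9 (-4.23, adjusted p = 0.0471), the macrophage gene Adgre1 (-0.93, adjusted p = 0.0453), Krt20 (-0.59, adjusted p = 0.0233) and Cdh1 (-0.42, adjusted p = 0.0092) fell. The lists had 2 of 12 fibroblast genes higher, and 3 of 12 leukocyte and 4 of 10 epithelial genes lower, against 5.61% higher and 4% lower over all tested genes. Of these calls in Il12a-/-, Cdh1 held in 21 of 24 alternatives, Krt20 in 14, Dpt, Col6a1 and Adgre1 in 11 and S100a9 in 9. In Il23a-/- no gene of any of the 15 lists was called against NEMOIEC-KO.

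**Figure D5:**
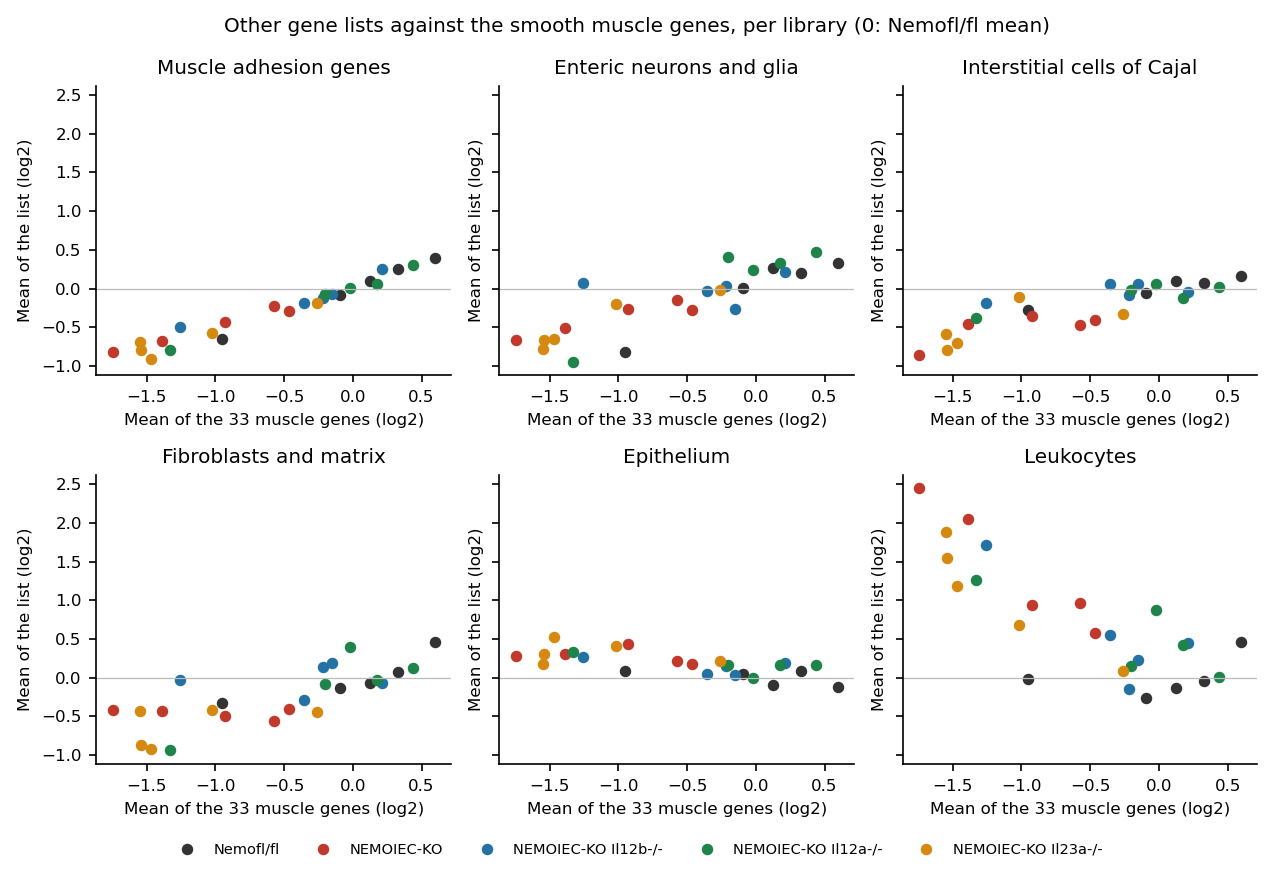
Mean log2 level of 6 gene lists in each library against the muscle level, by genotype: muscle adhesion, enteric neurons and glia, Cajal cells, fibroblasts and matrix, epithelium and leukocytes. The first 4 rise with the muscle level (r of 0.98, 0.86, 0.85 and 0.77) and the last 2 fall with it (-0.70 and -0.81).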

How the data were processed

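The authors deposited 1 table of FPKM values for 25 libraries. The submitters' processing notes name TopHat2 2.0.10, Cufflinks 2.1.1, DESeq2 1.10.1 and build GRCm38, without their roles. The 33 genes and the related lists were chosen with earlier results of these data known. Genes with at least 0.2 FPKM in 5 libraries (19266 of 49452) were fitted on log2(FPKM + 0.5) with limma 3.58.1 in R 4.3.3, which was tested on simulated data: all 25 libraries in 1 fit with genotype as the only term, a variance trend, 20 residual degrees of freedom and Benjamini-Hochberg adjustment over all tested genes. Fold changes on this scale understate changes of low genes. All 33 genes are accounted for. Full values are given for 12 defining genes and for the 3 largest changes in each direction per main comparison, and of each related list the 2 genes past the threshold with the largest change per main comparison are named, except 1 that is not reported here. Myl9 and Vcl were singled out after their values were seen. Alternatives were other pseudocounts, filters, scalings, samples and covariates, and leaving out each library. No 2 libraries were identical (highest correlation 0.984). Labels do not say how the mice of a genotype are related. Depth limits precision by an amount not known from FPKM.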

Additional observations from a re-analysis of the deposited data

Results flagged for a closer look

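In 6 of 80 sets of 5 mice tested, 1 mouse lay far from the other 4 of its genotype for a named gene. Chance flags about 1 in 20 such sets. In the libraries labelled Il12b-/-, replicate 2 was low for Myh11 (116 FPKM, next 349), Tagln (106, next 255) and Myl9 (394, next 1100). Control replicate 1 was low for the calponin gene Cnn1 (327 FPKM, next 763), Il12a-/- replicate 1 was low for Pln (1.32, next 4.44), and Il23a-/- replicate 2 was high for Des (732, next 292). The muscle level was tested in the same way and was not flagged in any genotype. Each of these 4 libraries still had the lowest or highest muscle level of its genotype, so the genes are not separate observations.

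Among the contrasts between double mutants, Itga8 (-0.98, adjusted p = 0.027) and Smpx (-1.31, adjusted p = 0.033) differed between Il23a-/- and Il12b-/- by limma. Of the 5 Il23a-/- mice 4 were female by Xist RNA, against 2 of the 5 labelled Il12b-/-, and neither gene was called with Xist RNA as a covariate.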

How the results depend on the processing

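Counts of the 33 genes called moved with many settings. Shares of all tested genes called under most of these settings are not given here. For NEMOIEC-KO against Nemofl/fl (21), the count was 10 without the filter, 7 with library code as a covariate, 8 within code K002000081, 4 without the libraries with skeletal muscle RNA, 6 among libraries without Xist RNA and 2 at equal level of the other genes. The related genes of the 4 muscle lists (30) gave 19, 18, 10, 13 and 11 under the first 5 of these, in this order. Il23a-/- against Nemofl/fl (26) gave 2 with library code, 8 without the skeletal muscle libraries, 2 with Xist RNA as a covariate, 0 among libraries without it and 2 at equal level. Il12b-/- against NEMOIEC-KO (2) gave 1 with library code, within code K002000079 and without the skeletal muscle libraries. Il12a-/- against NEMOIEC-KO (1) gave 0 within code K002000079 and 4 with Xist RNA as a covariate. Il23a-/- against Il12b-/- (2) gave 1 within code K002000079 and 0 without the filter, with only these groups fitted, without the skeletal muscle libraries, with or among libraries without Xist RNA, and at equal level. At equal level, Il23a-/- against NEMOIEC-KO and Il12a-/- against Nemofl/fl went from 0 to 1. Fewer mice or more terms leave each test with less information; beyond that the cause was not tested.

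With 1 library left out, counts ran from 4 to 27 (related genes 12 to 42) for NEMOIEC-KO, 9 to 30 for Il23a-/- and 0 for the other 2 against Nemofl/fl. Against NEMOIEC-KO they ran from 1 to 2 (Il12b-/-), 1 to 24 (Il12a-/-) and 0 (Il23a-/-). Between double mutants they were 0 (Il12a-/- against Il12b-/-), 0 to 10 (Il23a-/- against Il12b-/-) and 0 to 27 (Il23a-/- against Il12a-/-). The mean muscle level ran from -1.16 to -0.84 in NEMOIEC-KO, -0.50 to -0.13 in Il12b-/-, -0.35 to 0.10 in Il12a-/- and -1.40 to -1.07 in Il23a-/-.

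Signs turned for Myocd in NEMOIEC-KO against Nemofl/fl (0.012 with quantile normalization, 0.002 without the skeletal muscle libraries or control replicate 2, 0.017 without NEMOIEC-KO replicate 3 or among libraries without Xist RNA, 0.006 with Xist RNA as a covariate, and -0.219 to 0.017 over the fits with 1 library left out). Among libraries without Xist RNA they also turned for Casq2 in Il23a-/- against NEMOIEC-KO (0.275) and Des in Il23a-/- against Nemofl/fl (0.014). Median-of-ratios scaling moved the share of higher calls among all genes from 36.9% to 51.4% (NEMOIEC-KO against Nemofl/fl), 70.2% to 42.8% (Il12b-/- against NEMOIEC-KO), 58.3% to 34.2% (Il12a-/- against NEMOIEC-KO) and 42.6% to 52.5% (Il23a-/- against Nemofl/fl). It moved the median of all genes from 0.108 to 0.004 in the second, and left the sign count of the 33 genes in the first at 31 lower, with 14 called. The alternatives marked by skeletal muscle RNA, Xist RNA and the level of the other genes were chosen after seeing the data.

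Replicate numbers did not pair the mice: the 50 same-numbered pairs had a median correlation of 0.0071, against 0.0086 for other numbers, at most 1 of 5 pairs per main comparison exceeded 0.1, and 1, 0, 0 and 0 of 10 libraries correlated best with their own number. With the replicate number as a block, 16 genes were called in NEMOIEC-KO (related genes 27) and 23 in Il23a-/- against Nemofl/fl, 2 in Il12b-/- and 1 in Il12a-/- against NEMOIEC-KO, and 2 in Il23a-/- against Il12b-/-.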

Other observations

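Genes of striated muscle were present at uneven levels. Myoglobin (Mb) was 41 FPKM in Nemofl/fl replicate 2, 11.3 in Il12b-/- replicate 5 and at most 0.535 in the other 23 libraries, and the fast light chain Mylpf was 59.4, 34.9 and at most 4.5. Myl7, an atrial light chain, was higher in NEMOIEC-KO than in Nemofl/fl (9.49 against 0.695 FPKM, log2 change 2.63, adjusted p = 0.0052 by limma), in the opposite direction to the smooth muscle genes. Creatine kinase Ckm (-1.79, adjusted p = 0.0212) and cardiac troponin Tnnt2 (-1.75, adjusted p = 0.0246) were lower there. Of 9 tested skeletal muscle genes 2 were lower and 0 higher, and of 3 tested cardiac genes 1 was lower and 2 higher. Over all tested genes 20.3% were called lower and 11.9% higher, and the skeletal muscle count was near the lower share. Myl7 was lower again in the libraries labelled Il12a-/- (1.49 FPKM, -2.11 against NEMOIEC-KO, adjusted p = 0.0472), a call made in 9 of 24 alternatives. The fast myosin Myh2 was lower in NEMOIEC-KO than in the controls (-0.74, adjusted p = 0.0448), called in 7 of 23 alternatives. Its highest value was 1.75 FPKM in control replicate 2, which holds skeletal muscle RNA. The falls of Ckm and Tnnt2 were called in 19 and 17 of 24 alternatives.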
